A study of Mus musculus with 8 samples.

Results

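Axon guidance genes were followed in RNA of mouse pancreatic buds: semaphorins and their plexin receptors, Slits and Robo receptors, netrins and their receptors, and ephrins with Eph receptors. The set was a named list of 45 symbols. A gene entered when a probe set of the array mapped to its symbol alone, and for genes with several, the one brightest on average over the 8 arrays was used. This gave 44 genes of 19938 measured in the series, and Ephb2 had no probe set that named it alone. Many are known from the growth cones of neurons, and several also steer endothelial cells and branching epithelia.

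The 4 groups were pools of RNA, each hybridized to an Affymetrix mouse gene 1.0 ST array and once more as a technical repeat. The VEGF buds were freshly isolated pancreatic buds of 3 embryos at e12.5 that carried Pdx1-tTA, a tetracycline transactivator driven by the promoter of the pancreatic factor Pdx1, together with TET-VEGF, the VEGF transgene that it switches on. The control buds came from 3 littermates with Pdx1-tTA alone, so both bud pools carried the transactivator. The explants were e12.5 wild type buds, 5 per pool, treated in culture for 2 days with VEGFR2i, an inhibitor of the VEGF receptor Kdr, or with vehicle. Every condition was therefore 1 pooled RNA sample, for which no test between conditions exists, and the spread between the 2 arrays of a pool measures hybridization error only. Values are log2 expression after robust multi-array averaging (RMA) by the authors, and a difference is followed in brackets by its lowest and highest value over the 4 pairs of arrays. As bulk RNA, the pools do not tell fewer cells of a type from less RNA per cell.

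Guidance cues work as ligand and receptor pairs between neighbouring cells. Secreted class 3 semaphorins signal through plexins, usually with a neuropilin as the binding partner, whereas Sema3e binds Plxnd1 directly, and membrane semaphorins act over short range. Slits bind Robo receptors, netrins bind Dcc, neogenin and the Unc5 receptors, and ephrins bind Eph receptor tyrosine kinases on the cell next to them. In blood vessels, Plxnd1, Robo4, Unc5b, Efnb2 and Ephb4 are the members of these families known best, with Efnb2 marking arteries and Ephb4 veins.

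The arrays of a pool correlated at 0.997 to 0.998 over all probe sets, and no guidance gene differed by 1.5-fold between the 2 arrays of any pool. The largest gap within a pool was 0.32, for Sema3d in the VEGF buds, which is more than the difference of 0.26 between the bud pools for that gene. The arrays of the 2 pools overlapped for 18 of the 44 genes in the buds and for 12 in the explants. Over all 19938 genes they overlapped for 10905 and 9776. To be called higher or lower, a gene needed pool means at least 1.5-fold apart, which is 0.585 in log2, and arrays of the 2 pools that did not overlap. The endothelial genes of the explants went against the labels: Cdh5, the cadherin of endothelial junctions, stood at 8.66 in the pool labelled VEGFR2i and at 4.56 in the pool labelled vehicle, although the inhibitor targets a receptor that endothelial cells depend on. Cdh5 had the largest explant difference of all 19938 genes. Over 20 endothelial marker genes the differences ran from 0.23 to 4.10, with a median of 1.92. Explant directions below follow the labels as they stand and cannot be read as effects of the inhibitor.

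Robo2, Robo4 and Efna1 were higher in the VEGF buds than in the control buds, and no guidance gene was lower by the same rule. In the explants Robo4, Plxnd1, Efna1, Efnb2, Sema3g, Robo1 and Sema6d were higher in the pool labelled VEGFR2i, and again none was lower. The calls made up 3 of 44 guidance genes in the buds, where 0.552% of all genes were called higher and 0.933% lower. With single arrays left out, the bud count ran from 1 to 5, and Robo4 and Efna1 lost the bud call without the first VEGF array or the second control array. In the explants they made up 7 of 44, where 1.82% of all genes were called higher and 0.371% lower. Robo4 and Efna1 were called in both comparisons, as were 0.206% of all genes, and 36 of the 44 were called in neither. The median difference of the 44 was 0.01 in the buds and 0.13 in the explants, against 0.00 and -0.00 for all genes.

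**Figure D1:**
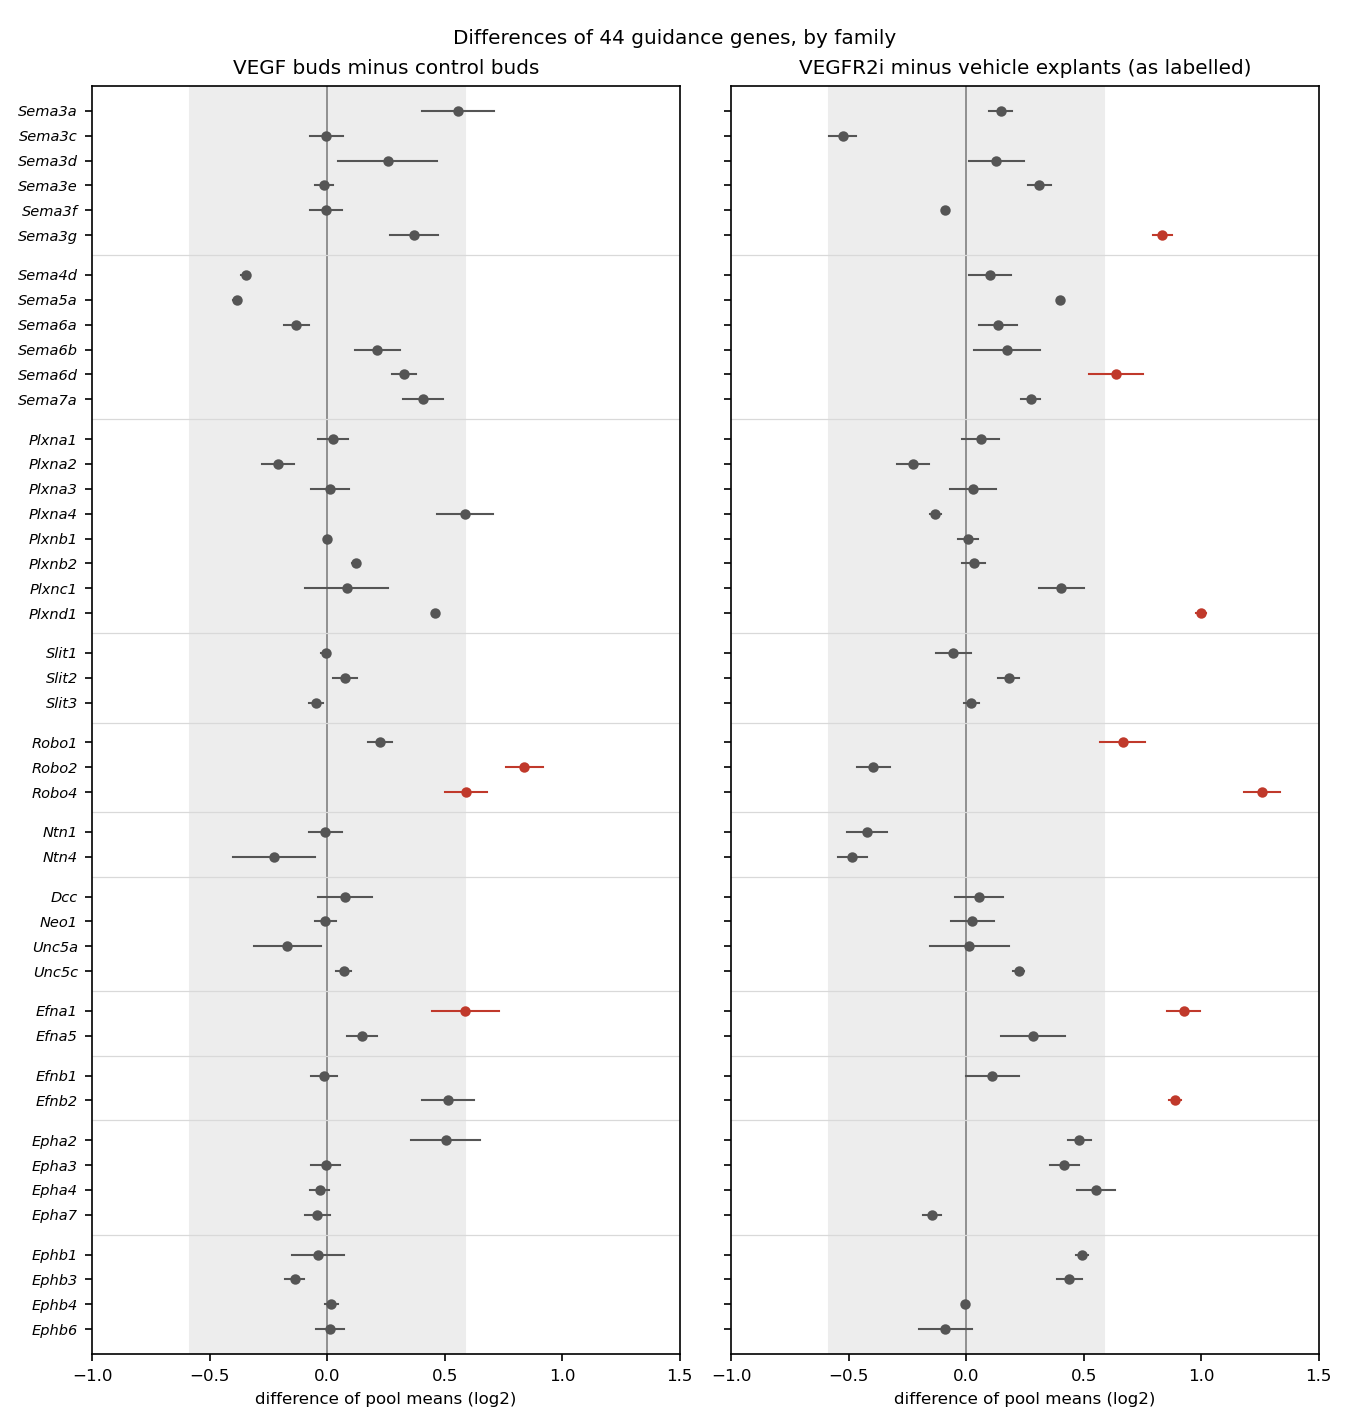
Difference of pool means (log2) for each of the 44 guidance genes, in family order from class 3 semaphorins at the top to EphB receptors at the bottom, with lines from the lowest to the highest pair of arrays. The grey band covers differences under 1.5-fold, red points are genes called higher, and no gene was called lower in either panel.

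Robo4 is the member of the roundabout (Robo) family restricted largely to endothelium. Robo4 measured 7.43 and 7.41 on the VEGF bud arrays and 6.91 and 6.75 on the control arrays. It measured 5.27 and 5.21 in the pool labelled VEGFR2i and 3.94 and 4.03 in the pool labelled vehicle. All VEGF bud arrays thus lay above all control arrays, and the vehicle pool was the lowest of the 4, under the median of its arrays (4.32 and 4.33). The bud difference was 0.59 [0.50, 0.68], or 1.51-fold, just inside the limit, and it was 0.58 without the first VEGF array and 0.51 without the second control array, under the limit both times. The explant difference was 1.26 [1.18, 1.33], or 2.39-fold, as measured. Because Robo4 is dim in the vehicle pool, where differences come out too small, that fold is not exact, and the gene was not called in the explants when a mean level of at least 5 was required.

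Robo1, the broadly expressed receptor for Slit2, was called in the explants alone. It measured 7.82 and 7.89 in the pool labelled VEGFR2i against 7.25 and 7.13 in the pool labelled vehicle. The difference was 0.67 [0.57, 0.76]. In the buds it measured 8.997 and 8.98 against 8.80 and 8.72, a difference of 0.23 [0.17, 0.28], with all VEGF arrays above the control arrays but short of the limit.

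Robo2, a receptor of the same type that is best known from axons and the kidney, had the largest difference of the guidance genes in the buds and went the other way in the explants. It measured 6.73 and 6.75 in the VEGF buds against 5.97 and 5.83 in the control buds, a difference of 0.84 [0.76, 0.92], or 1.79-fold. In the explants it measured 6.20 and 6.28 in the pool labelled VEGFR2i against 6.60 and 6.67 in the pool labelled vehicle. The difference was -0.40 [-0.47, -0.33]. The arrays did not overlap in either set, and 8.88% of all genes had such opposite directions. Robo1 and Robo2 are next to each other on chromosome 16 with 0 protein-coding genes between them in the RefSeq annotation (GRCm38.p6), and their explant differences had opposite signs.

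The Slit ligands themselves differed little. Slit2 was at 10.07 and 9.999 in the VEGF and control buds and at 9.60 and 9.42 in the VEGFR2i and vehicle pools. Slit3 had differences of -0.05 in the buds and 0.02 in the explants. Slit1, a cue of the nervous system, was dim, with pool means of 3.94 to 4.73. None of the 3 Slits came near the limit. Of the Robo genes on the list, Robo4 was called in both comparisons, Robo2 in the buds alone and Robo1 in the explants alone. Of all genes, 0.552% were called higher in the buds and 1.82% in the explants. A contrast between Slits and Robo genes was not tested. Robo3, outside the list and dim, was called in neither comparison.

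**Figure D2:**
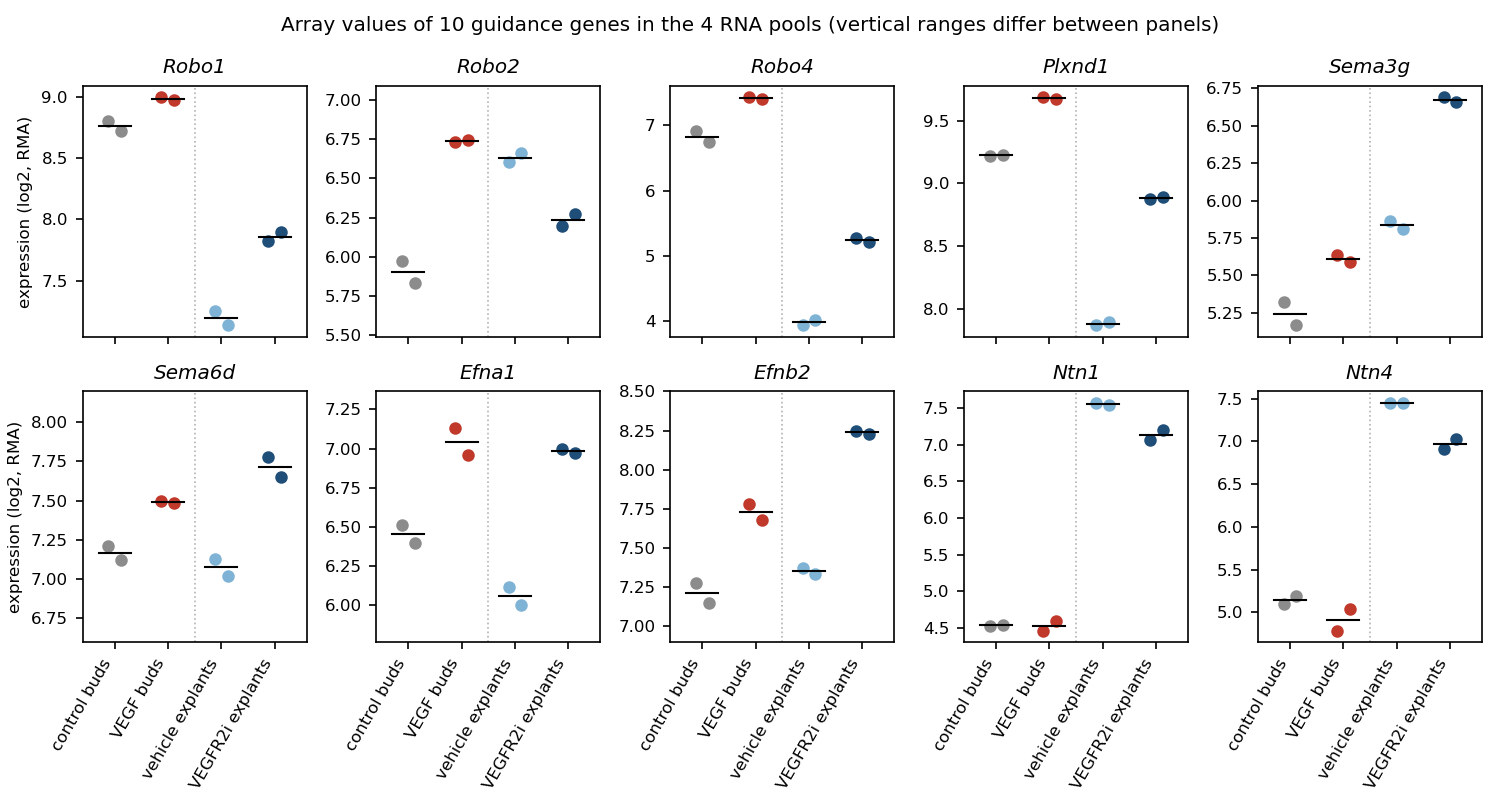
Expression (log2, RMA) of the 8 guidance genes called in a pool comparison and of both netrins on the list. Each array is 1 point, and a line marks the mean of each pool. The dotted line separates buds from explants, and vertical ranges differ between panels. Robo4 and Plxnd1 are lowest in the vehicle explants, Robo2 is higher in the VEGF buds but lower in the VEGFR2i explants, and Ntn1 and Ntn4 are high in both explant pools.

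Among plexins, the semaphorin receptors, Plxnd1 stood apart in the explants. Plxnd1, which endothelial cells use to read Sema3e, measured 8.87 and 8.89 in the pool labelled VEGFR2i and 7.87 and 7.89 in the pool labelled vehicle. That is a difference of 1.001 [0.98, 1.02], or 2.00-fold. In the buds it measured 9.68 on both VEGF arrays against 9.22 and 9.23 on the control arrays, a difference of 0.46 [0.45, 0.47] that was under the limit although the arrays did not overlap.

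Plxna4, a receptor for class 3 and class 6 semaphorins, lay immediately under the limit in the buds. Its values were 7.68 and 7.65 against 7.18 and 6.98, a difference of 0.584, and it was called when the arrays were centred on their medians. In the explants it went slightly the other way, with -0.13 [-0.16, -0.11]. The 6 other plexins differed by -0.21 to 0.12 in the buds and by -0.23 to 0.40 in the explants. Plxnb2, the plexin with a role in epithelial tissues, stayed between 10.02 and 10.14 in all 4 pools. Plxnb1 had differences of -0.00 and 0.01.

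Class 3 semaphorins are secreted and often repel cells. Sema3g, the member known from arterial endothelium, measured 6.69 and 6.66 in the pool labelled VEGFR2i against 5.87 and 5.81 in the pool labelled vehicle. The difference was 0.84 [0.79, 0.88], or 1.78-fold. In the buds it was at 5.63 and 5.59 against 5.32 and 5.16, and the difference of 0.37 [0.27, 0.47] was not called. Both arrays of the first-named pool were above the other pool in each set, as for 9.87% of all genes.

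Sema3a, the classical repellent of axons, showed the reverse balance, with 8.02 and 7.89 against 7.49 and 7.31 in the buds and a difference of 0.56 [0.40, 0.71], under the limit, but 0.15 in the explants. Sema3c, which attracts some axons and acts on the heart outflow tract, had no difference in the buds (-0.00) and the most negative difference of the 44 in the explants, -0.53 [-0.58, -0.47], at 7.38 against 7.91. Sema3e, the ligand of Plxnd1, was dim in every pool. Its means were 3.36 and 3.37 in the buds and 4.34 and 4.03 in the explants, so its difference of 0.31 rests on values at the low end of the range. Sema3f, a ligand of neuropilin 2, varied by under 0.10 in both comparisons (-0.01 and -0.09). Sema3d differed by 0.26 and 0.13 and was dim in the buds, with means under 5. Sema3a and Sema3d, neighbours on chromosome 5, were both higher in the VEGF buds with arrays not overlapping, as were 23.7% of all genes. Sema3e, the next listed gene after Sema3a there, differed by -0.01 in the buds with overlapping arrays.

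The 6 membrane semaphorins on the list split in the buds and pointed one way in the explants, which relatives outside the list did not all share. Sema6d, a transmembrane ligand of plexin A1, measured 7.77 and 7.65 in the pool labelled VEGFR2i against 7.13 and 7.02 with vehicle by label, a difference of 0.64 [0.52, 0.75]. It was 0.58 and no longer called without the first VEGFR2i array or without the second vehicle array. In the buds it measured 7.50 and 7.48 against 7.21 and 7.12, a difference of 0.33 [0.28, 0.38], with arrays not overlapping. All 6 on the list had both VEGFR2i arrays above both vehicle arrays, beside 25.9% of all genes. In the buds 3 lay above and 3 below, beside 23.7% and 21.6% of all genes.

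Those lower in the VEGF buds were Sema5a, at 9.35 against 9.73 (-0.39), Sema4d, a ligand of Plxnb1, at 5.85 against 6.20 (-0.35), and Sema6a, with -0.13. Each had the opposite sign in the explants, where Sema5a differed by 0.40 [0.39, 0.41]. Sema7a, a GPI-anchored semaphorin and ligand of Plxnc1, differed by 0.41 in the buds and 0.27 in the explants. Sema6b differed by 0.21 and 0.17 and was dim in the explants, at 4.47 against 4.30. Plxnc1 itself was dim, with 0.08 in the buds and 0.40 in the explants.

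Both netrins on the list were lower in the pool labelled VEGFR2i. Ntn3, outside the list, was higher there by 0.12 [0.06, 0.17], short of the limit. Ntn1, the founding netrin, measured 7.07 and 7.20 in the pool labelled VEGFR2i and 7.58 and 7.54 in the pool labelled vehicle. The difference was -0.42 [-0.51, -0.34]. Ntn4, a netrin found in basement membranes, measured 6.91 and 7.03 against 7.45 on both vehicle arrays, a difference of -0.48 [-0.55, -0.42]. Neither reached the limit. The arrays did not overlap for either gene, and 25% of all genes had both VEGFR2i arrays below both vehicle arrays. In the buds Ntn1 was at 4.52 and 4.53, and Ntn4 at 4.92 and 5.14 with a difference of -0.23 [-0.40, -0.05].

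The netrin receptors on the list differed by at most 0.22 in either comparison. Neo1, the broadly expressed receptor neogenin, had pool means of 9.39 to 9.45, and Unc5c differed by 0.07 in the buds and 0.22 in the explants. Unc5a was at 4.52 to 5.15 in the 4 pools, above the median of the arrays, and Dcc at 3.48 to 3.70, below it. The endothelial netrin receptor Unc5b was not among the 44 and is described with the other family members.

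Ephrin-A1 and ephrin-B2 were the ephrins that were called. Efna1, a GPI-anchored ligand of EphA2, measured 7.13 and 6.96 in the VEGF buds against 6.52 and 6.40 in the control buds, a difference of 0.587 [0.44, 0.73], just inside the limit. It was 0.50 without the first VEGF array and 0.53 without the second control array, and then not called. In the explants Efna1 measured 6.999 and 6.97 in the pool labelled VEGFR2i against 6.11 and 6.01 in the pool labelled vehicle. The difference was 0.93 [0.86, 0.99], or 1.90-fold.

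Efnb2, the arterial ephrin, measured 8.25 and 8.23 against 7.37 and 7.34 in the explants, with a difference of 0.89 [0.86, 0.91], or 1.85-fold. In the buds it measured 7.78 and 7.68 against 7.28 and 7.15, and its difference of 0.51 [0.40, 0.63] stayed under the limit. Efnb1, its X-linked relative, had differences of -0.01 and 0.11 with overlapping arrays in both sets. Efna5 differed by 0.15 and 0.28.

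No Eph receptor was called in either comparison. Ephb4, the venous receptor of ephrin-B2, was among the most even genes of the list, at 9.26 and 9.25 in the VEGF and control buds and at 9.29 and 9.30 in the VEGFR2i and vehicle pools. Epha2, the receptor of ephrin-A1, differed by 0.50 [0.36, 0.65] in the buds and 0.48 [0.43, 0.53] in the explants. It was the only Eph receptor with both VEGF arrays above both control arrays, beside 23.7% of all genes.

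Other Eph receptors differed in the explants more than in the buds, a contrast that was not tested. Epha4, which binds ephrins of both classes, was at 8.02 against 7.47, a difference of 0.55 [0.47, 0.63] that passed the limit without the second VEGFR2i array (0.61). Ephb1 (0.49), Ephb3 (0.44) and Epha3 (0.42) were higher in the pool labelled VEGFR2i with arrays not overlapping, as were 25.9% of all genes. Their bud differences were -0.04, -0.14 and -0.01. Ephb1 was dim, at 4.98 against 4.49 in the explants, and its second probe set differed by -0.01 there. Epha7 differed by -0.15, and Ephb6, whose kinase is inactive, by -0.09 with overlapping arrays.

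Counted without a size limit, 18 of 44 guidance genes had both VEGF bud arrays above both control arrays and 8 had them below, beside 23.7% and 21.6% of all genes. In the explants 24 had both VEGFR2i arrays above and 8 below, beside 25.9% and 25% of all genes. Of the 44, 15 were above in both comparisons, beside 9.87% of all genes: Sema3a, Sema3d, Sema3g, Sema6b, Sema6d, Sema7a, Plxnd1, Slit2, Robo1, Robo4, Unc5c, Efna1, Efna5, Efnb2 and Epha2. Opposite directions were seen for 6, beside 8.88% of all genes. They were Plxna4 and Robo2, higher in the VEGF buds, and Sema4d, Sema5a, Sema6a and Ephb3, lower in the VEGF buds. Plxna2 and Ntn4 were lower in both. The bud and explant comparisons share no arrays.

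Markers of vessels had the same direction as the called genes. Of 20 endothelial marker genes, 7 were called higher in the VEGF buds and 19 in the pool labelled VEGFR2i, with median differences of 0.53 and 1.92, and all 20 were positive in both comparisons. Their summed level, on the linear scale, ran from 6122 to 6273 on the VEGF bud arrays, 4029 to 4061 on the control arrays, 2915 to 2980 in the pool labelled VEGFR2i and 622.0 to 652.1 in the pool labelled vehicle. The median level of the markers in the vehicle pool was 4.34, close to the median of its arrays. Pecam1 was at 4.31 there and Emcn at 3.30.

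Mural cell markers had 1 of 10 called higher in the buds and 7 of 10 in the explants (median 0.81), and leukocyte markers 0 of 9 and 8 of 9 (median 0.92). Summed leukocyte markers were 904.3 to 936.6 in the pool labelled VEGFR2i and 440.3 to 460.6 in the pool labelled vehicle, and summed mural markers 6920 to 7037 against 4240 to 4306.

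Other markers differed between the bud pools. The epithelial markers had median levels of 7.83, 8.44, 9.47 and 9.74 in the VEGF buds, control buds, VEGFR2i and vehicle pools, so markers of the labelled tissue were present in each. Mesothelial markers had 5 of 7 called higher in the VEGF buds (median 0.73), with summed levels of 955.6 to 973.1 against 628.5 to 643.3, and epithelial markers had 9 of 14 lower (median -0.65), with summed levels of 4520 to 4689 against 6957 to 7060. Endocrine markers had 10 of 12 lower in the buds. Neural crest and neuronal markers had 3 of 10 measured lower in the buds and 1 higher in the explants, while mesenchymal markers had medians of 0.14 in both comparisons. What part any of these markers had in the guidance genes was not tested.

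**Figure D3:**
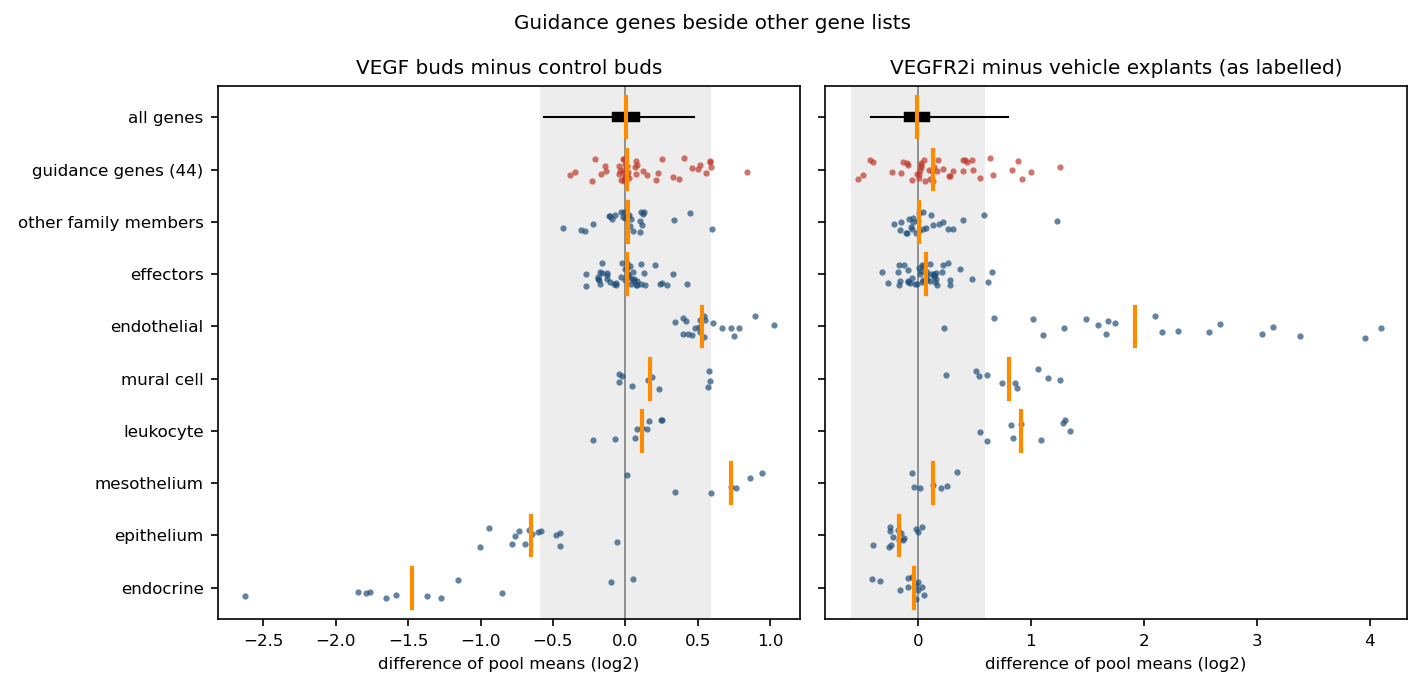
Difference of pool means (log2) for the 44 guidance genes (red), for other gene lists (blue, 1 point per gene) and for all genes (thick bar from the 25th to the 75th percentile, thin line for the outer percentiles), with orange marks at medians and a grey band for differences under 1.5-fold. The guidance genes have medians of 0.01 and 0.13 and tails to the right, while endothelial markers have medians of 0.53 and 1.92.

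Of 26 other measured members of the same families and neuropilins, Unc5b was called higher in the buds, and Unc5b and Sema5b in the explants. Of all genes, 0.552% were called higher in the buds and 1.82% in the explants. Unc5b, the netrin receptor of endothelial tip cells, measured 7.59 and 7.38 against 6.92 and 6.85 in the buds (0.60) and 7.73 and 7.65 against 6.57 and 6.34 in the explants (1.24 [1.08, 1.39]). Sema5b differed by -0.43 in the buds and 0.59 in the explants, the same signs as Sema5a. Nrp1, the neuropilin that also binds VEGF, differed by 0.04 and 0.22, and Nrp2 by 0.45 and 0.40. In the explants Sema4c (0.31) and Sema6c (0.27) were higher and Sema4b (-0.15) and Sema4g (-0.21) lower, all with arrays not overlapping. Of all genes, 25.9% were higher and 25% lower in this way. Sema4a (0.00) and Sema4f (0.01) had overlapping arrays there. Robo3 was dim and differed by -0.01 in the buds and -0.10 in the explants. Ntn3 differed by -0.00 and 0.12, and Ntn5, also dim, by 0.12 and -0.02.

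Of 44 measured co-receptors and intracellular effectors, none was called in the buds, and 2 were called higher in the explants. They were Sdc3 (0.66), a heparan sulphate proteoglycan, and Mical1 (0.63), an oxidoreductase that acts downstream of plexins. Among all genes, 0.552% were called higher and 0.933% lower in the buds. In the explants the shares were 1.82% and 0.371%. The median differences of this list were 0.01 and 0.08, and those of the other family members 0.02 and 0.01.

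Levels were also set across buds and explants, where genotype, culture, age and a possible separate normalization cannot be told apart. A gene was called when each explant pool lay at least 2-fold from each bud pool. By this rule 8 of 44 were called: Ntn1, Ntn4, Sema7a, Sema3c and Sema4d were higher in the explants, and Robo4, Efna5 and Epha4 lower. Among all genes 6.04% were higher and 0.787% lower. Without a size limit, 13573 of 19938 genes had both explant pool means above both bud pool means, and 2834 had them below. The median over all genes was 0.16 and that over the 44 was 0.02, while centring of the arrays on their medians put these at -0.05 and -0.20.

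Ntn1 and Ntn4 stood highest relative to the buds. Ntn1 lay 2.82 above the buds, 7.07-fold as measured, with 2.61 to 3.04 between single pools. Its bud arrays, at 4.46 and 4.59 with VEGF and 4.53 and 4.54 without, were under 5, where differences come out too small, so the fold is not exact. Ntn4 lay 2.18 above (4.54-fold, 1.83 to 2.54), from bud arrays of 4.79 and 5.04 with VEGF and 5.10 and 5.19 without. Every explant array of both netrins was above every bud array, a direction that 13573 of 19938 genes shared by pool means.

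Sema7a measured 5.92 and 5.81 in the VEGF buds, 5.49 and 5.43 in the control buds, 7.50 and 7.57 in the pool labelled VEGFR2i and 7.25 and 7.27 in the pool labelled vehicle. It was 1.73 above the buds. Ntn1, Ntn4 and Sema7a were also called after centring and after quantile normalization, but Sema3c (1.29) and Sema4d (1.28) were not. Sema3c measured 6.33 and 6.37 in the VEGF buds, 6.40 and 6.31 in the control buds, 7.43 and 7.33 in the pool labelled VEGFR2i and 7.90 and 7.92 in the pool labelled vehicle. It was not called without the first VEGFR2i array or the second control array. Sema4d measured 5.84 and 5.86, 6.19 and 6.20, 7.30 and 7.40, and 7.22 and 7.28 in the same order of pools, and was not called with the mean of its probe sets. Explant arrays of both genes lay above all bud arrays, the common direction given above.

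Robo4 lay below the buds by a difference of -2.52, with -3.44 to -1.59 between single pools, dim in the vehicle pool as given above. Efna5 followed with -1.41, from 8.35 and 8.27 in the VEGF buds and 8.14 and 8.19 in the control buds to 7.08 and 6.87 in the pool labelled VEGFR2i and 6.66 and 6.72 in the pool labelled vehicle. Epha4, a receptor that ephrin-A5 can activate, had -1.35, with 9.11 and 9.06, 9.13 and 9.10, 8.08 and 7.97, and 7.50 and 7.45 in the same order. Both genes had all explant arrays under all bud arrays, a direction that 2834 of 19938 genes shared by pool means. Robo1 (-1.35) and Plxnd1 (-1.07) were below the buds too, without every pair of pools reaching 2-fold, and Robo1 was called after centring or quantile normalization. All 3 Slits were lower in both explant pools than in either bud pool, by -0.76 for Slit1, -0.53 for Slit2 and -0.26 for Slit3. The same held for 2834 of 19938 genes. The endothelial markers lay below the buds by a median of -1.74, with 0 of 20 positive, and 12 of 14 epithelial markers were called higher in the explants (median 1.61). What part these markers had in the guidance genes was not tested.

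**Figure D4:**
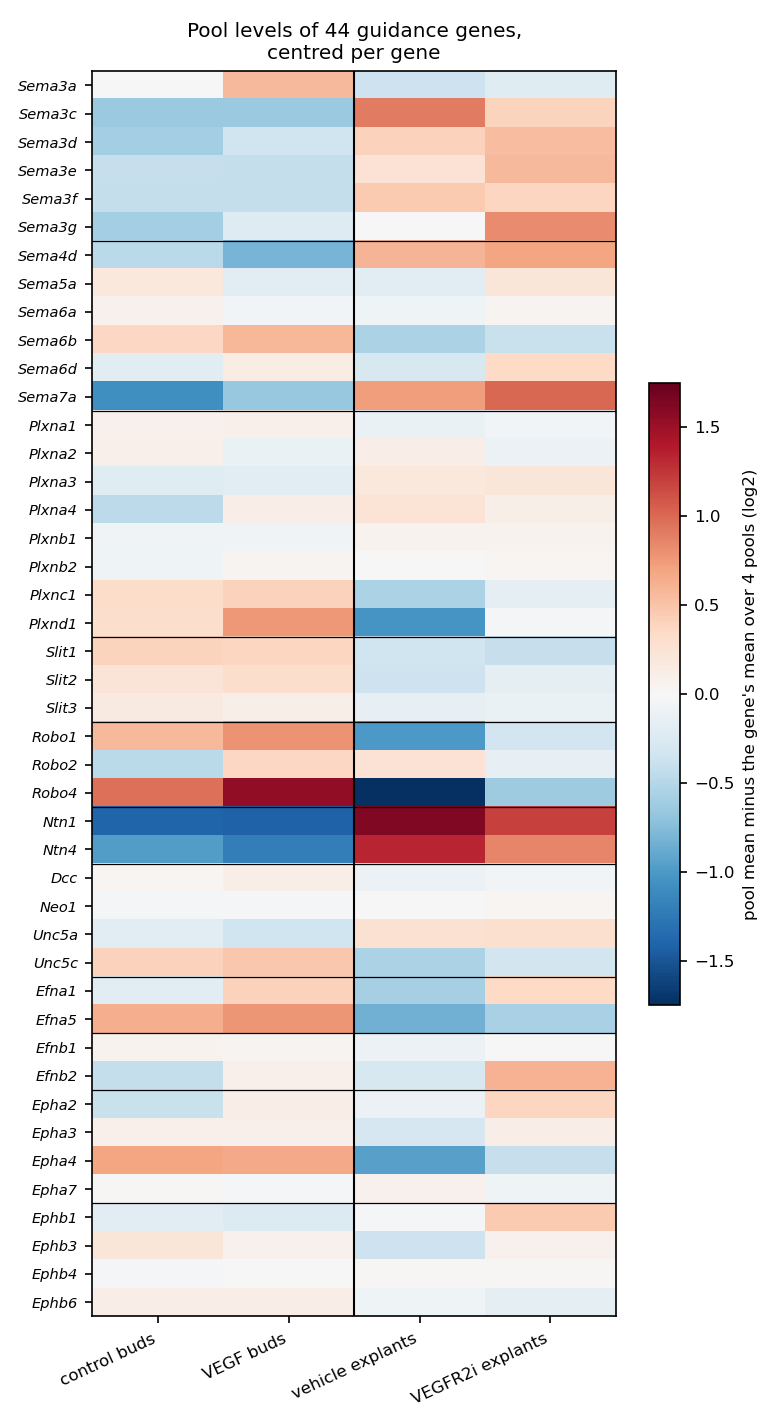
Mean level of each pool minus the mean of the gene over the 4 pools (log2, colour), for the 44 guidance genes in family order, with fresh buds left of the vertical line and explants right of it. Ntn1 and Ntn4 are high and Robo4 low in both explant pools, and Neo1, Plxnb2 and Ephb4 are nearly even across the pools.

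Among relatives outside the 44, Epha1 lay 1.56 above the buds in the explants, and of the effectors Ngef, a guanine nucleotide exchange factor that acts downstream of EphA receptors, lay 2.61 above, Mical2 2.04, Dpysl5 1.90, Farp2 1.34 and Srgap3 1.32. Srgap3 binds Robo receptors, and Dpysl5 belongs to the proteins that relay semaphorin signals to the cytoskeleton. These were the genes called higher, 1 of 26 and 5 of 44, beside 6.04% of all genes. None of either list was called lower, beside 0.787% of all genes, and Ntn3 (-1.01) went the opposite way to Ntn1 and Ntn4.

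Promoter sequences are shown for 4 of the 7 genes called in the explants, picked after their values were seen as the 4 best known from endothelium, all with arrays not overlapping in both comparisons. Each is the stretch of 250 bases before the annotated start in RefSeq (GRCm38.p6), 5′ to 3′ on the strand of the gene. They are Robo4 on the plus strand (chr9:37401722-37401971), Plxnd1 on the minus strand (chr6:115995006-115995255), Sema3g on the plus strand (chr14:31217623-31217872) and Efnb2 on the minus strand (chr8:8661243-8661492). Capitals mark GGAA on either strand, the core letters bound by ETS factors, a family with endothelial members such as Erg.
Robo4: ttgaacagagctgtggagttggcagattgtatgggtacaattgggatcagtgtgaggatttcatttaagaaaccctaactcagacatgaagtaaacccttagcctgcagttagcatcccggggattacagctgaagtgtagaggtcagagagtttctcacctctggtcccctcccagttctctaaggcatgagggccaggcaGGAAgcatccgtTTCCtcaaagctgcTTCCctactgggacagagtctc
Plxnd1: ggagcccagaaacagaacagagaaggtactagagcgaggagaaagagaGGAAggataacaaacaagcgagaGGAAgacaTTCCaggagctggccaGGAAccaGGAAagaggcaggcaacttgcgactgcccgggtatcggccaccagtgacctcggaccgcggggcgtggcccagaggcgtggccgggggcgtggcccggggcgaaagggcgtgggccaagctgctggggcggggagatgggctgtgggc
Sema3g: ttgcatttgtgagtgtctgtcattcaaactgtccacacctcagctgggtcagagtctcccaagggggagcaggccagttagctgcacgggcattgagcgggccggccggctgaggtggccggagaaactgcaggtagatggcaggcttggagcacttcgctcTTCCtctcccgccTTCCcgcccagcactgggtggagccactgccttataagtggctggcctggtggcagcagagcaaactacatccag
Efnb2: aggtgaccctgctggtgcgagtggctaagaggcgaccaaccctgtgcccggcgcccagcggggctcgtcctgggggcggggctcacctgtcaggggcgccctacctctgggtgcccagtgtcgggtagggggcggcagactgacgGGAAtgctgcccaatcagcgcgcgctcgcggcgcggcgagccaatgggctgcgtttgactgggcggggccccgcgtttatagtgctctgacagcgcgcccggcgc

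The windows held 3 matches for Robo4, 5 for Plxnd1, 2 for Sema3g and 1 for Efnb2. Those of Robo4 and Sema3g lie nearer the start, those of Plxnd1 in the part farther from it. Over all 32851 promoters of this length, 93.4% held at least 1 match with a median of 3, and of 46 promoters of 37 guidance genes 87% did, also with a median of 3. GTGGGAA, letters bound by the Notch partner RBPJ that overlap the ETS core, were in 5.42% of all promoters and in 3 of the 46, belonging to Epha7 and Plxnb2. Such matches describe letters and are no evidence of binding. GC content had a median of 64.8% in the guidance promoters and 52.4% in all promoters, while the Robo4 window had 49.6%.

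Genes with several probe sets were Sema4d, Sema6b and Ephb1. The second probe set of Sema4d was dim, with differences of -0.09 and -0.13 against -0.35 and 0.10 for the one used, so the explant sign differed between them. The second of Ephb1 differed by -0.05 and -0.01 against -0.04 and 0.49. Both probe sets of Sema6b held the same values.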

How the data were processed

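Pancreatic bud RNA of 4 pools was measured on 8 arrays. Per the series' design text, the authors used RMA in Partek Genomic Suite 6.5, and the deposited table holds one log2 value for each probe set and array, the log scale being read from the values. RMA gives arrays a common distribution, so a general shift can be lost, and dim genes show differences that are too small. Of 35399 probe sets, 21789 had 1 gene symbol in the platform annotation, 1621 had several and were not named, and 11989 had none. Groups came from the labels, and the 2 arrays of a pool were averaged.

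The members and lists were chosen with earlier results of these data known. All members are accounted for, called ones with every array value and the others by range with up to 4 named per family. Other guidance genes are named where called, and marker genes by up to 3 per list. Sema3d, Sema6b, Nrp1 and Nrp2 were named beyond this rule after their values were seen. So were Sema4a, Sema4b, Sema4c, Sema4f, Sema4g, Sema6c, Robo3, Ntn3 and Ntn5, none of which was called. The lists hold other family members, co-receptors and effectors, and markers of endothelium, mural cells, neural crest and neurons, mesenchyme, epithelium, endocrine cells, acini, leukocytes, mesothelium and red cells. Acinar markers had 5 of 10 lower in each pool comparison, and 4 of 5 measured red cell markers were higher in the VEGF buds. Alternatives were each array left out, the mean of probe sets, median centring, quantile normalization, other folds, a level of at least 5 and the methods' t-test on the arrays. Python 3.11.15, numpy 2.4.6, pandas 2.3.3 and scipy 1.17.1 were used, and the call rule was tested on simulated data. Each condition had 1 RNA pool, so the spread between pools of a condition is unknown. The 2 arrays per pool bear on hybridization error only.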

Additional observations from a re-analysis of the deposited data

How the results depend on the processing

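No called guidance gene changed sign under the alternatives run. Leaving out single arrays gave 1 to 5 calls in the buds and 6 to 8 in the explants, and 7 to 8 for explants against buds, with medians of 0.015 to 0.039, 0.12 to 0.18 and 0.01 to 0.03. In the buds, 1 call (Robo2) was left without the first VEGF array, 5 were made without the second VEGF array or the first control array, which added Sema3a and Plxna4, and 2 (Robo2 and Epha2) without the second control array. A 2-fold limit left 0 calls in the buds and 2 in the explants (Robo4 and Plxnd1), and a 4-fold limit left 1, Ntn1, for explants against buds. The methods' t-test, which here measures hybridization error only, gave 3 and 7 calls unadjusted at a p under 0.05 with 1.5-fold, and 0 and 0 after Benjamini-Hochberg adjustment over all genes. Centring on array medians moved the bud median to 0.037 and that of explants against buds to -0.20, and quantile normalization moved the latter to -0.29. Explants against buds then had 3 higher and 4 lower calls after centring and 3 and 6 after quantile normalization, against 5 and 3 as deposited. The calls of Robo4 and Efna1 in the buds, of Sema6d in the explants and of Sema3c for explants against buds were lost without certain single arrays, and Sema4d was lost there with the mean of probe sets. A mean level of at least 5 removed Robo4 from the explant calls. At the dim end, where differences come out too small, Sema3e, Slit1, Dcc and Ephb1 had means under 5 in both sets. Sema3d, Ntn1 and Unc5a had them in the buds, and Sema6b, Plxnc1 and Robo4 in the explants. No paired analysis was possible because the arrays of a pool are technical repeats and carry no replicate number shared between pools.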
